A study of Arabidopsis thaliana with 24 samples.

Results

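The leaf genes with lower signals at - Fe in both genotypes were 100 probe sets of the Affymetrix ATH1 array, out of 22746 probe sets that are no array controls. A probe set was taken when all 6 week-matched leaf differences between - Fe and + Fe lay below -0.3 on the scale of log2(signal + 16), 3 of them from wild type and 3 from the quadruple mutant nas4x-1. The 100 probe sets with the lowest maximum of the 6 differences were kept. Before that, 145 probe sets of the study's metal homeostasis gene list had been set aside. So had 2 further probe sets of named genes with a known response to Fe. Before the limit of 100 was applied, 146 probe sets met the rule. Over all probe sets, with none set aside, the share was 0.673%. The members were chosen by their leaf differences between - Fe and + Fe, so these are given as a description with no test. Differences in roots, and between genotypes as the mean of both Fe supplies, were not used by the rule and were tested.

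Arabidopsis wild type (ecotype Columbia) and nas4x-1 were grown hydroponically with 10 µM FeNa-EDTA until 4 weeks of age and then for 7 days with 10 µM (+ Fe) or 0 µM (- Fe) FeNa-EDTA. The mutant carries T-DNA insertions in all 4 nicotianamine synthase genes, in the Columbia background. Rosette leaves and roots of the 5 week old plants were hybridized separately, giving 8 groups of 3 arrays (24 arrays in all), and the 3 repeats came from 3 consecutive weeks. How many plants entered each RNA sample is not given in the sources used here. Each leaf or root value is one of bulk tissue, in which fewer cells of a type and less RNA per cell cannot be told apart.

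Iron in a leaf is used mainly in chloroplasts, in the haem groups and iron-sulfur (Fe-S) clusters of electron carriers and enzymes. Plants short of iron are known to lower ferritins and other iron-rich proteins. Nicotianamine is a metal chelator that plants make from S-adenosylmethionine and that carries iron and copper through the phloem and between cells. Yellow stripe-like transporters move metal-nicotianamine complexes across membranes.

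The arrays matched their labelled organ in the 2 markers that could be read. LHCB4.1, a light-harvesting protein of photosystem II, had signals of 3960 to 5247 in leaves and 60.2 to 176.7 in roots. PYK10, a root beta-glucosidase, had signals of 1933 to 3556 in roots and 0.513 to 22.0 in leaves. NAS3, 1 of the 4 genes disrupted in nas4x-1, had + Fe leaf signals of 355, 130 and 313 in wild type and of 48.7, 35.0 and 24.6 in nas4x-1. Arrays of the same group correlated at 0.947 to 0.988 over probe sets.

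Of the 100 members, 66 matched a single gene, 33 matched none in the annotation used here and 1 matched several. The 66 genes were spread over all 5 chromosomes, with 18 on chromosome 1, 12 on chromosome 2, 10 on chromosome 3 and 13 each on chromosomes 4 and 5. In 3 cases a pair of members were direct neighbours, namely COR15A with COR15B, AT1G07040 with AT1G07050, and AT5G62350 with AT5G62360. Whether the probe sets of COR15A and COR15B, which encode closely related proteins, share signal was not tested. The members were mostly bright. Their mean signal in wild type + Fe leaves had a median of 305, against 39.4 over all probe sets, and ran from 36.4 for probe set 261448_at to 4953 for 246481_s_at.

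The highest of the 6 leaf differences ran from -1.65 for AT2G25625 to -0.38 for SIR, with a median of -0.49. It lay below -0.5 for 48 members and below -1 for 7. The last members inside the limit were AT2G25730 (-0.386), PWD (-0.386), AT1G01250 (-0.385) and SIR (-0.383). The first outside were AT3G26580 (-0.381), AT4G33700 (-0.376), AT1G27030 (-0.373) and 258894_at (-0.373), so the edge of the set lies in a dense range of values. The mirror set, with all 6 differences above 0.3, held 85 probe sets. In wild type leaves, all - Fe arrays lay below all + Fe arrays for 52 members, where the share of all probe sets was 8.12%. In nas4x-1 leaves this held for 60 members, where the share of all probe sets was 5.56%. Both counts follow from the choice of members. The remaining members were lower at - Fe within each week but overlapped between supplies across weeks.

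**Figure D1:**
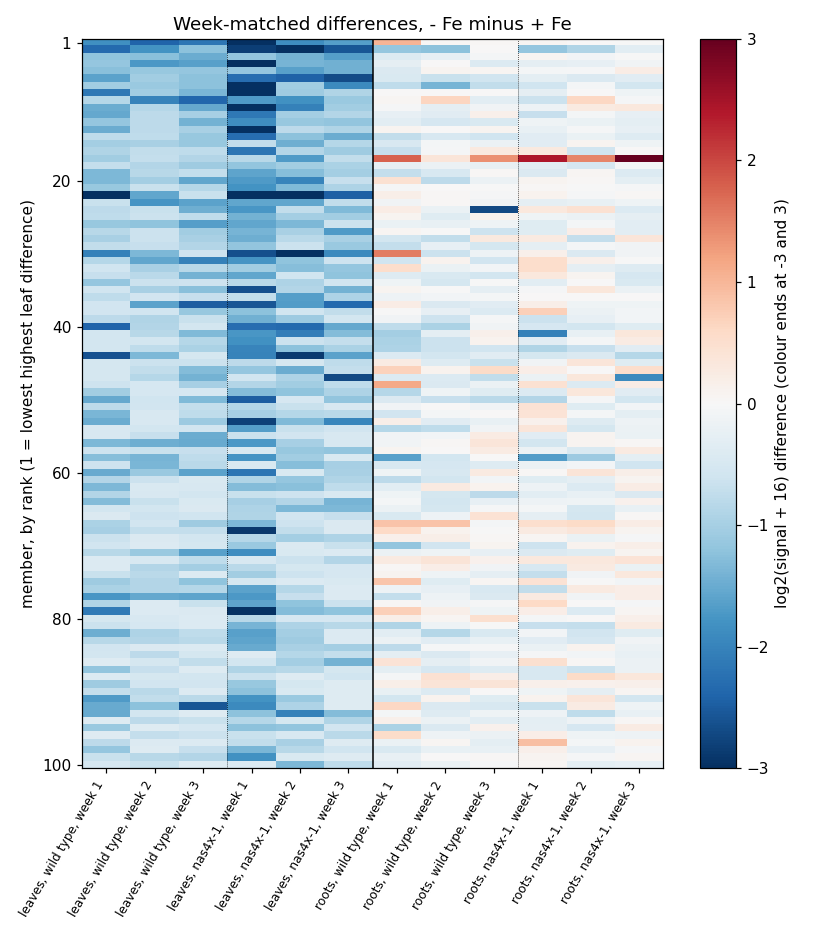
Week-matched log2(signal + 16) differences, - Fe minus + Fe, of the 100 members (rows, by rank of their highest leaf difference) in both organs and genotypes (columns, 1 per harvest week). Blue is below 0 and red above 0, with colours ending at -3 and 3. The 6 leaf columns are blue in every row by the rule, while the 6 root columns are pale and of mixed sign.

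Several members with iron cofactors, or with a part in making them, are known from plastids. NEET, an Fe-S protein of the NEET family, had the lowest mean of the 6 leaf differences of any member, -2.81. NEET signals in wild type leaves were 521, 309 and 534 at + Fe and 2.82, 95.3 and 330 at - Fe in weeks 1, 2 and 3. NEET signals in nas4x-1 leaves were 1026, 263 and 609 at + Fe and 35.0, 19.0 and 97.9 at - Fe. The week 3 array of wild type - Fe overlapped the + Fe range, and the nas4x-1 groups did not overlap.

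ABCI8, also known as SUFB, is a subunit of the plastid scaffold complex on which Fe-S clusters are built. ABCI8 signals in wild type leaves were 1238, 1046 and 1491 at + Fe and 220, 562 and 1012 at - Fe. ABCI8 signals in nas4x-1 leaves were 1022, 1060 and 1216 at + Fe and 196, 196 and 408 at - Fe. In both genotypes the - Fe arrays lay below all + Fe arrays, in wild type only just so in week 3. The mean log2 difference was -1.28 in wild type and -2.06 in nas4x-1.

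SAPX, the stromal ascorbate peroxidase, is a haem enzyme that removes hydrogen peroxide. SAPX signals in wild type leaves were 231, 303 and 247 at + Fe and 24.3, 110 and 166 at - Fe. SAPX signals in nas4x-1 leaves were 308, 328 and 349 at + Fe and 65.0, 30.9 and 104 at - Fe. The supplies did not overlap in either genotype, and the mean differences were -1.5 and -2.16.

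SIR, the plastid sulfite reductase, holds a sirohaem and an Fe-S cluster. SIR signals in wild type leaves were 340, 622 and 709 at + Fe and 233, 388 and 540 at - Fe. SIR signals in nas4x-1 leaves were 598, 645 and 760 at + Fe and 447, 246 and 442 at - Fe. SIR had the smallest difference of these 4 plastid genes (means of -0.52 and -0.84), and its wild type groups overlapped.

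NYC1, chlorophyll b reductase, starts the breakdown of chlorophyll b. NYC1 signals in wild type leaves were 551, 838 and 775 at + Fe and 124, 318 and 494 at - Fe. NYC1 signals in nas4x-1 leaves were 574, 853 and 658 at + Fe and 79.1, 82.2 and 163 at - Fe. No arrays overlapped between supplies, and the mean difference was -1.34 in wild type and -2.56 in nas4x-1.

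Of these 5 genes, NEET, ABCI8, SAPX and NYC1 each had their lowest wild type difference in week 1 (-4.83, -2.41, -2.61 and -2.02) and the one nearest to 0 in week 3 (-0.67, -0.55, -0.53 and -0.63). SIR was lowest in week 2 (-0.66) and also nearest to 0 in week 3 (-0.38). In nas4x-1 the week 3 differences of NEET, ABCI8, SAPX and NYC1 were -2.46, -1.54, -1.6 and -1.91.

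**Figure D2:**
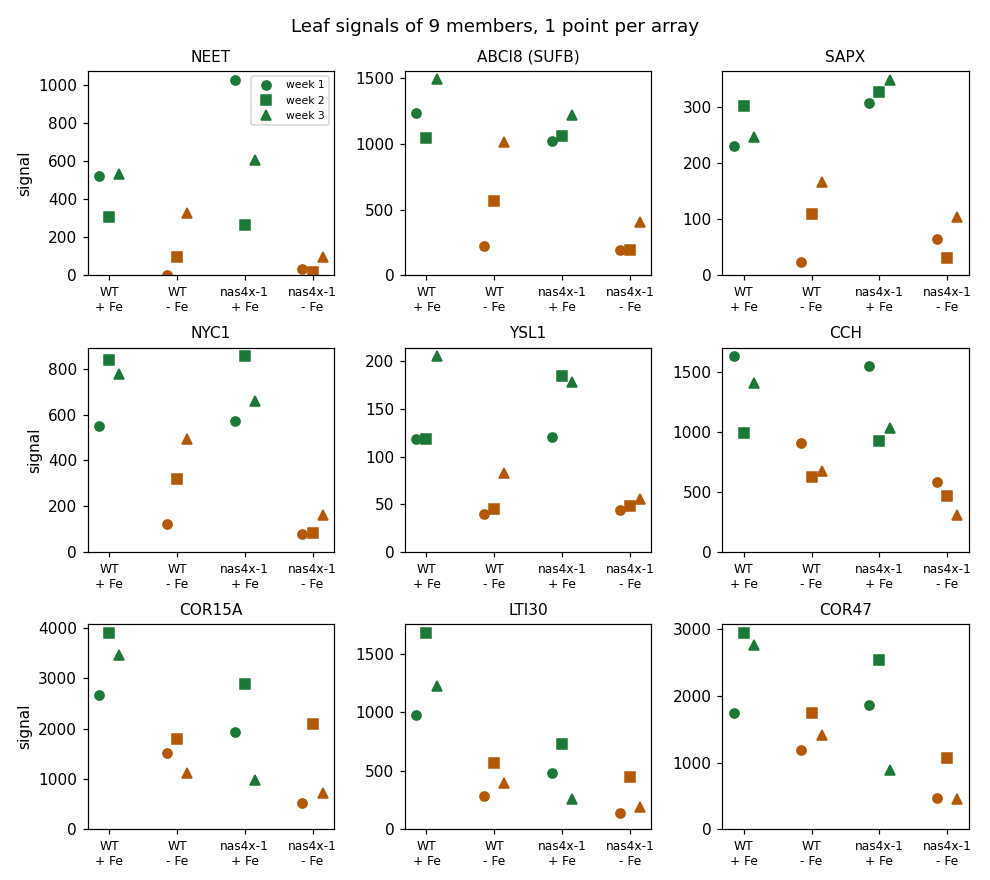
Deposited leaf signals of 9 members, 1 point per array, in wild type (WT) and nas4x-1 at + Fe (green) and - Fe (brown), with symbols for the harvest weeks. The - Fe points of ABCI8, SAPX, NYC1, YSL1 and CCH lie below all + Fe points of the same genotype, while NEET in wild type, COR15A and LTI30 in nas4x-1 and COR47 in both genotypes overlap.

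Other members handle metals or are annotated as a copper enzyme. YSL1 is a yellow stripe-like transporter of metal-nicotianamine complexes. YSL1 signals in wild type leaves were 118, 118 and 206 at + Fe and 40.4, 45.5 and 82.6 at - Fe. YSL1 signals in nas4x-1 leaves were 121, 184 and 178 at + Fe and 44.7, 48.4 and 55.9 at - Fe. The supplies did not overlap, and the 6 differences were close together, from -1.63 to -1.13.

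CCH is a copper chaperone of the ATX1 family. CCH signals in wild type leaves were 1638, 994 and 1408 at + Fe and 912, 630 and 677 at - Fe. CCH signals in nas4x-1 leaves were 1554, 928 and 1032 at + Fe and 586, 467 and 307 at - Fe. In each genotype the - Fe arrays were all lower than the + Fe arrays, with mean differences of -0.84 and -1.35.

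AT3G43670 is annotated as a copper amine oxidase. AT3G43670 signals in wild type leaves were 129, 235 and 192 at + Fe and 13.0, 56.1 and 73.0 at - Fe. AT3G43670 signals in nas4x-1 leaves were 269, 242 and 225 at + Fe and 24.2, 15.9 and 25.0 at - Fe. The supplies were well apart in both genotypes, with mean differences of -1.78 and -2.80.

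AT2G25625, annotated only as an unknown protein, led the ranking. AT2G25625 signals in wild type leaves were 123, 79.8 and 110 at + Fe and 22.9, 2.03 and 12 at - Fe. AT2G25625 signals in nas4x-1 leaves were 152, 45.7 and 37.5 at + Fe and 0.663, 0.979 and 1.05 at - Fe. All - Fe signals lay below all + Fe signals of the genotype. The offset of 16 limits the log2 difference of such dim values, so the means of -2.14 and -2.28 understate the ratio of the signals.

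AT3G49160, of the pyruvate kinase family, showed a wide gap in nas4x-1. AT3G49160 signals in wild type leaves were 41.8, 41.6 and 85.5 at + Fe and 3.03, 11.8 and 27.5 at - Fe. AT3G49160 signals in nas4x-1 leaves were 113, 92.0 and 152 at + Fe and 10.5, 4.03 and 10.3 at - Fe. There was no overlap between supplies, and the mean difference was -1.29 in wild type and -2.46 in nas4x-1.

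A set of 5 named cold or dehydration genes formed another group, which was noticed after the values had been seen. COR15A and COR15B encode stromal proteins that protect chloroplast membranes during freezing, COR413IM1 is a cold-regulated protein of the inner chloroplast membrane, and COR47 and LTI30 are dehydrins. All 5 genes that could be read of a list of 24 such genes were members. This count has no test, because the list was drawn up from the members.

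COR15A signals in wild type leaves were 2675, 3904 and 3465 at + Fe and 1506, 1798 and 1109 at - Fe. COR15A signals in nas4x-1 leaves were 1933, 2880 and 972 at + Fe and 522, 2101 and 723 at - Fe. The wild type groups did not overlap, but the nas4x-1 groups did, since the week 2 array at - Fe was above the + Fe arrays of weeks 1 and 3.

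COR15B signals in wild type leaves were 1393, 2575 and 1709 at + Fe and 489, 1500 and 867 at - Fe. COR15B signals in nas4x-1 leaves were 933, 2085 and 842 at + Fe and 93.8, 1199 and 441 at - Fe. Week 2 was the brightest week in all 4 groups, and the supplies overlapped in both genotypes although each week's - Fe array was the lower one.

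COR47 signals in wild type leaves were 1739, 2950 and 2761 at + Fe and 1188, 1743 and 1417 at - Fe. COR47 signals in nas4x-1 leaves were 1871, 2539 and 885 at + Fe and 463, 1065 and 452 at - Fe. The supplies overlapped in both genotypes, in wild type by a small margin.

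LTI30 signals in wild type leaves were 978, 1672 and 1225 at + Fe and 280, 564 and 397 at - Fe. LTI30 signals in nas4x-1 leaves were 478, 731 and 253 at + Fe and 133, 445 and 187 at - Fe. The gap between supplies was clear in wild type and overlapped in nas4x-1, whose + Fe signals were all below those of wild type.

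COR413IM1 signals in wild type leaves were 1135, 2137 and 1719 at + Fe and 760, 693 and 299 at - Fe. COR413IM1 signals in nas4x-1 leaves were 1447, 1388 and 765 at + Fe and 230, 423 and 140 at - Fe. No overlap occurred between supplies, and the mean differences were -1.55 in wild type and -2.19 in nas4x-1, the latter the lowest of the 5 genes. In wild type, the difference of COR413IM1 was nearest to 0 in week 1 (-0.57) and lowest in week 3 (-2.46), whereas the week 1 difference was the lowest for NEET, ABCI8, SAPX and NYC1.

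**Figure D3:**
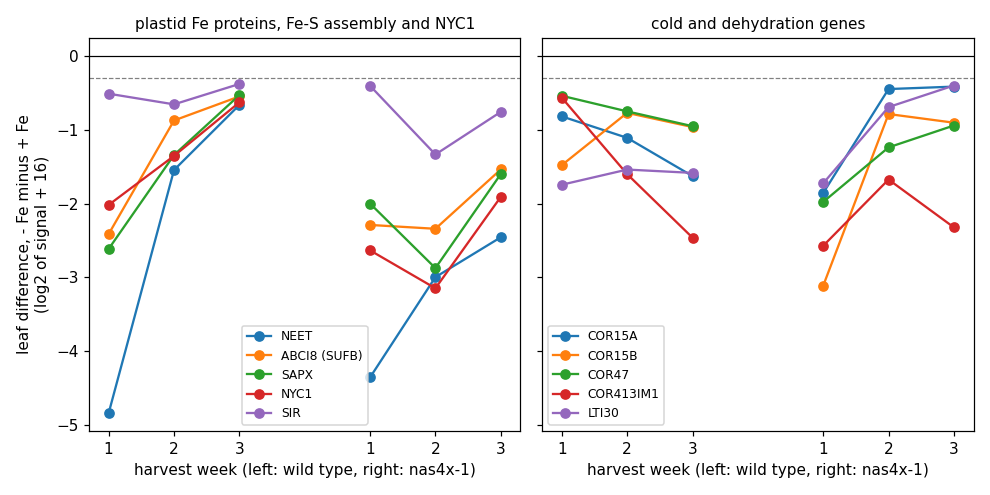
Week-matched leaf differences (log2 of signal + 16, - Fe minus + Fe) of 5 plastid genes (left panel) and 5 cold and dehydration genes (right panel), with wild type to the left and nas4x-1 to the right in each panel. Each point is the difference of 1 pair of arrays, the lines only join the points of a gene, and the dashed line marks the limit of -0.3. NEET reaches -4.83 in wild type week 1 and -0.67 in week 3, while COR413IM1 is at -0.57 in week 1 and -2.46 in week 3.

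Among the other leading members with a known role, CNGC4 is a cyclic nucleotide-gated cation channel, ARF11 an auxin response factor, and HIS1-3 a linker histone variant induced by drought. CNGC4 signals in wild type leaves were 217, 149 and 145 at + Fe and 90.0, 86.9 and 72.4 at - Fe. CNGC4 signals in nas4x-1 leaves were 197, 173 and 104 at + Fe and 45.1, 59.9 and 46.8 at - Fe. Both genotypes were free of overlap between supplies.

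ARF11 signals in wild type leaves were 73.7, 77.8 and 87.3 at + Fe and 36.8, 43.6 and 45.0 at - Fe. ARF11 signals in nas4x-1 leaves were 125, 83.8 and 67.7 at + Fe and 36.3, 33.7 and 24.6 at - Fe. The wild type arrays of each supply were tight, and the supplies did not overlap in either genotype.

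HIS1-3 signals in wild type leaves were 1088, 154 and 133 at + Fe and 594, 41.7 and 20.3 at - Fe. HIS1-3 signals in nas4x-1 leaves were 350, 109 and 34.0 at + Fe and 91.1, 38.0 and 16.3 at - Fe. Week 1 was far brighter than the other weeks in each of the 4 groups, so the supplies overlapped in both genotypes and the lower level at - Fe shows only within weeks.

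The other leading members are known here by their locus. AT3G55760 signals in wild type leaves were 198, 401 and 322 at + Fe and 77.3, 159 and 105 at - Fe. AT3G55760 signals in nas4x-1 leaves were 159, 312 and 157 at + Fe and 61.3, 106 and 39.3 at - Fe. This gene had nearly the same mean difference in both genotypes, -1.31 and -1.42, with no overlap between supplies.

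AT2G39920 signals in wild type leaves were 435, 630 and 502 at + Fe and 86.6, 297 and 184 at - Fe. AT2G39920 signals in nas4x-1 leaves were 323, 444 and 245 at + Fe and 26.5, 205 and 124 at - Fe. Here too the - Fe arrays were all below the + Fe arrays, with the difference nearest to 0 in week 2 for wild type (-1.04) and in week 3 for nas4x-1 (-0.90).

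AT1G16850 signals in wild type leaves were 153, 561 and 228 at + Fe and 77.1, 128 and 30.6 at - Fe. AT1G16850 signals in nas4x-1 leaves were 108, 291 and 45.2 at + Fe and 22.3, 70.5 and 12.1 at - Fe. The supplies overlapped in nas4x-1 only, where the week 3 array at + Fe was low.

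AT1G77960 signals in wild type leaves were 163, 51.0 and 63.3 at + Fe and 48.1, 21.2 and 11.2 at - Fe. AT1G77960 signals in nas4x-1 leaves were 224, 104 and 31.4 at + Fe and 1.01, 13.4 and 6.94 at - Fe. Neither genotype overlapped, although the wild type margin was small.

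AT1G12845, annotated as an unknown protein, was steadier across weeks. AT1G12845 signals in wild type leaves were 321, 262 and 186 at + Fe and 101, 145 and 85.6 at - Fe. AT1G12845 signals in nas4x-1 leaves were 302, 281 and 257 at + Fe and 55.6, 131 and 132 at - Fe. All - Fe arrays were below all + Fe arrays.

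AT3G05640 signals in wild type leaves were 230, 172 and 307 at + Fe and 116, 96.6 and 175 at - Fe. AT3G05640 signals in nas4x-1 leaves were 331, 106 and 162 at + Fe and 59.4, 50.7 and 69.2 at - Fe. A slight overlap was present in wild type and none in nas4x-1.

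AT2G38465 signals in wild type leaves were 54.3, 161 and 110 at + Fe and 11.7, 71.9 and 26.9 at - Fe. AT2G38465 signals in nas4x-1 leaves were 46.3, 182 and 36.3 at + Fe and 3.22, 34.0 and 16.3 at - Fe. Week 2 was the brightest in every group, and the wild type supplies overlapped.

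AT4G33490 is annotated as an aspartic-type endopeptidase. AT4G33490 signals in wild type leaves were 128, 256 and 228 at + Fe and 49.4, 103 and 61.6 at - Fe. AT4G33490 signals in nas4x-1 leaves were 168, 203 and 104 at + Fe and 46.0, 69.8 and 60.5 at - Fe. The groups did not overlap in either genotype.

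AT5G27930 signals in wild type leaves were 209, 487 and 351 at + Fe and 132, 241 and 191 at - Fe. AT5G27930 signals in nas4x-1 leaves were 236, 370 and 197 at + Fe and 105, 142 and 79.1 at - Fe. The overlap was confined to wild type for this gene.

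Among the remaining members with a known role, the chloroplastic lipocalin CHL and the phosphoglucan water dikinase PWD, which acts in starch breakdown, had mean differences of -1.08 and -0.75 in wild type and -1.10 and -0.93 in nas4x-1. The highest mean of the 6 differences over all members was -0.52, for probe set 248466_at.

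Differences between the genotypes in the size of the leaf gap come from the values that chose the members and are given with no test. The mean leaf difference of the members had a median of -0.86 in wild type and -1.10 in nas4x-1, and it was lower in nas4x-1 for 78 members. The medians by week were -0.89, -0.75 and -0.82 in wild type and -1.44, -1.01 and -0.88 in nas4x-1, so most of the gap between genotypes lay in week 1. Over all probe sets the same medians lay between -0.02 and 0. The lowest of the 3 nas4x-1 differences lay in week 1 for 66 members, in week 2 for 23 and in week 3 for 11, where the shares of all probe sets were 38.5%, 32.1% and 29.5%. For wild type these counts were 46, 15 and 39, where the shares of all probe sets were 37.1%, 32.2% and 30.7%.

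In 11 members all 3 nas4x-1 differences lay below all 3 wild type differences, as they did in 6.83% of all probe sets, and in 1 member the reverse was found, against 7.8% of all probe sets. The 11 included AT3G43670, AT3G49160, ARF11, AT5G27930, AT1G51550 (an F-box protein), AT5G14940 (a POT family transporter) and ALN, the allantoinase of ureide breakdown. ALN signals in wild type leaves were 143, 147 and 138 at + Fe and 91.6, 96.0 and 97.4 at - Fe. ALN signals in nas4x-1 leaves were 142, 117 and 129 at + Fe and 66.8, 36.5 and 40.4 at - Fe. The + Fe arrays of the genotypes overlapped for ALN, while all nas4x-1 - Fe arrays were below all wild type - Fe arrays.

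The level of the members in nas4x-1 against wild type leaves, averaged over both Fe supplies, was not used by the rule. The members were lower in nas4x-1 as a rule: their median log2 difference was -0.46, against 0 over all probe sets, and 91 of the 100 were below 0, where 48.7% of all probe sets were. The values ran from -1.26 for AT4G01390 to 0.34 for AT3G49160. All 6 week-matched differences between the genotypes (3 at + Fe, 3 at - Fe) were below 0 for 44 members, where 4% of all probe sets were. Of the 83 members with a mean signal of at least 100 in wild type + Fe leaves, 40 had this pattern. Among all probe sets as bright as that the share was 7.35%. None of the members had all 6 above 0, as 3.49% of all probe sets did. Genotype differences at a single supply share values with the rule, so these counts are a description only.

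No member passed an adjusted p of 0.05 in this genotype comparison by limma over all 22746 probe sets, of which 0.106% passed. At an unadjusted p under 0.05, limma gave 34 members, all of them lower in nas4x-1, where 9.58% of all probe sets reached that level. Of the 83 members with a mean signal of at least 100 in wild type + Fe leaves, 31 were lower at that level. Among all probe sets as bright as that, 7.16% were. An ANOVA with the larger of averaged and actual variance approximated the error model described by the study, without its Bayesian setting. By this ANOVA error model, 14 members reached an unadjusted p under 0.05, where 3.06% of all probe sets did, and none an adjusted one. With the harvest week as a block in limma, 66 members reached an unadjusted p under 0.05, against 14.6% of all probe sets, and 1 passed after adjustment, where 0.202% of all probe sets did. It was probe set 255070_at (log2 difference -0.70, adjusted p = 0.0416 in the limma fit with the block and 0.538 without it).

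**Figure D4:**
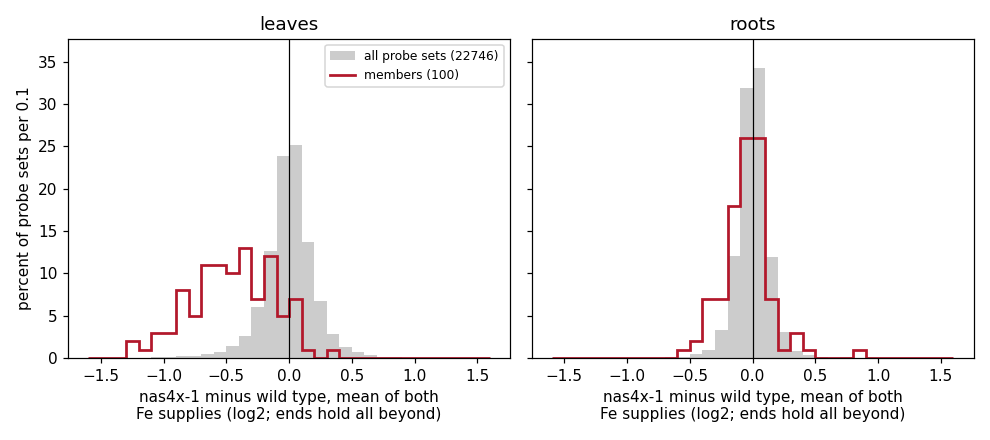
Distribution of the log2 difference nas4x-1 minus wild type, averaged over both Fe supplies, in leaves (left panel) and roots (right panel), as percent of probe sets per bin of 0.1. Grey areas are all 22746 probe sets and red lines the 100 members. In leaves the members are shifted to the left with a median of -0.46, and in roots they stay near the centre with a median of -0.04.

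The lower level in nas4x-1 leaves was seen at both supplies but was uneven between weeks. Values at a single supply are not independent of the rule and are given with no test. At + Fe the median difference of the members was -0.19 in week 1, -0.19 in week 2 and -0.59 in week 3, with 64, 70 and 87 members below 0. At - Fe it was -0.62, -0.42 and -0.59, with 82, 91 and 93 members below 0. The nas4x-1 + Fe array of week 3 stood lowest against wild type at + Fe, and without that array the median of the leaf genotype comparison was -0.36.

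AT5G18130, annotated as an unknown protein, had the smallest p of the members in this comparison. AT5G18130 signals in wild type leaves were 583, 395 and 657 at + Fe and 400, 232 and 258 at - Fe. AT5G18130 signals in nas4x-1 leaves were 313, 361 and 214 at + Fe and 132, 118 and 125 at - Fe. Each nas4x-1 group lay wholly below the wild type group of the same supply, and the log2 difference was -0.98 with an SE of 0.175 (limma, adjusted p = 0.0975, and 0.0551 with the harvest week as a block).

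LTI30 was the lowest of the dehydration genes in nas4x-1, with the values given above. Its log2 difference was -1.12 with an SE of 0.318 (limma, adjusted p = 0.338). The other 4 cold and dehydration genes had differences of -0.90 (COR47), -0.89 (COR15B), -0.80 (COR413IM1) and -0.77 (COR15A), none of which passed. COR15B and LTI30 were lower in nas4x-1 in all 6 pairs of arrays, while COR47, COR413IM1 and COR15A each had 1 pair with the opposite sign.

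AT4G01390 had the largest difference, with wide scatter. AT4G01390 signals in wild type leaves were 389, 177 and 268 at + Fe and 266, 90.2 and 91.2 at - Fe. AT4G01390 signals in nas4x-1 leaves were 189, 102 and 95.6 at + Fe and 118, 46.4 and 0.971 at - Fe. The genotypes overlapped at both supplies, and the week 3 array of nas4x-1 at - Fe stood far below the rest. The difference of -1.26 had an SE of 0.455 (limma, adjusted p = 0.43).

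The plastid and metal genes were not shifted in common between genotypes. SAPX (-0.01), NEET (-0.15), SIR (0.15) and YSL1 (0.02) had means near 0, while ABCI8 (-0.57), NYC1 (-0.66) and CCH (-0.46) were lower in nas4x-1 without passing the test. For NEET and SAPX the mean covers wide scatter (limma SE 0.613 and 0.332). NEET differed by 0.958, -0.22 and 0.185 at + Fe and by 1.439, -1.67 and -1.605 at - Fe. SAPX differed by 0.392, 0.109 and 0.47 at + Fe and by 1.006, -1.421 and -0.598 at - Fe. SIR also changed sign between weeks at - Fe (0.893, -0.626 and -0.28). NYC1 differed by 0.06, 0.03 and -0.23 at + Fe and by -0.56, -1.77 and -1.51 at - Fe, so its lower mean came from the - Fe arrays. AT3G49160 was the member with the highest value, being above wild type by 1.16, 0.91 and 0.73 at + Fe and differing by 0.48, -0.48 and -0.73 at - Fe.

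Roots were compared to see whether the members had lower signals at - Fe in the other organ as well. In wild type roots the median log2 difference of the members between - Fe and + Fe was -0.19, against -0.02 over all probe sets, and in nas4x-1 roots it was -0.12 against -0.01 (-0.07 without the nas4x-1 + Fe root array of week 2). In each genotype 74 members were below 0, where 56.5% (wild type) and 51.5% (nas4x-1) of all probe sets were. No member passed an adjusted p of 0.05 by limma in wild type roots, where 0% of all probe sets passed, or in nas4x-1 roots, where 0.0132% passed. At an unadjusted p under 0.05, limma gave 13 members in wild type roots (12 of them below 0), where 4.37% of all probe sets reached that level, and 5 in nas4x-1 roots (4 below 0), where 3.62% did. The ANOVA error model gave 2 members in each at an unadjusted p under 0.05, where 1.41% (wild type) and 0.875% (nas4x-1) of all probe sets reached it, and none after adjustment. With the harvest week as a block, limma gave 26 members in wild type roots and 14 in nas4x-1 roots at an unadjusted p under 0.05, where 8.12% and 7.75% of all probe sets reached it, and 0 after adjustment in both.

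All 6 root differences were below 0 for 20 members, where 4.54% of all probe sets had that pattern, and above 0 for 4 members, where 4.02% did. Of the 83 members with a mean signal of at least 100 in wild type + Fe leaves, 17 had all 6 below 0. Among all probe sets as bright as that, 6.3% did. Root signals stayed below the offset of 16 in all 12 root arrays for 17 members, so that their root differences are held near 0 by the offset, and none of the 17 had 6 root differences of 1 sign. Among these 17 were NEET (0.392 to 2.59), YSL1 (0.292 to 8.46), CNGC4 (0.221 to 0.762), COR15A (0.362 to 15.9), COR15B (3.07 to 10.4) and COR413IM1 (2.94 to 13.9). Of the 20, the lowest means of the 6 root differences were those of 248337_at (-0.68), COR47 (-0.68), AT4G30650 (-0.56), ABCI8 (-0.54) and SAPX (-0.52).

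SAPX signals in wild type roots were 203, 281 and 233 at + Fe and 149, 186 and 180 at - Fe. SAPX signals in nas4x-1 roots were 174, 179 and 182 at + Fe and 117, 130 and 93.1 at - Fe. The supplies did not overlap in either genotype. The log2 difference was -0.44 in wild type (SE 0.158, limma adjusted p = 1) and -0.60 in nas4x-1 (SE 0.158, limma adjusted p = 0.986) beside leaf means of -1.5 and -2.16.

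ABCI8 signals in wild type roots were 383, 286 and 311 at + Fe and 221, 139 and 286 at - Fe. ABCI8 signals in nas4x-1 roots were 279, 237 and 257 at + Fe and 192, 157 and 196 at - Fe. In wild type the supplies touched, and in nas4x-1 they were apart. The limma differences of -0.61 and -0.47 (SE 0.218 for each, adjusted p = 1 for both) did not pass.

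COR47 signals in wild type roots were 1251, 2137 and 1272 at + Fe and 655, 1351 and 846 at - Fe. COR47 signals in nas4x-1 roots were 949, 1546 and 956 at + Fe and 498, 948 and 757 at - Fe. Week 2 was the brightest week in roots too, and the wild type supplies overlapped, while those of nas4x-1 were separated by a very small margin.

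AT4G30650 signals in wild type roots were 121, 300 and 350 at + Fe and 86.3, 181 and 192 at - Fe. AT4G30650 signals in nas4x-1 roots were 195, 231 and 261 at + Fe and 98.0, 224 and 175 at - Fe. Both genotypes overlapped between supplies. Probe set 248337_at, with no gene assigned here, was dim, with wild type root signals of 25.1, 83.1 and 41.4 at + Fe and 8.37, 21.6 and 18.1 at - Fe. Its nas4x-1 root signals of 13.2, 52.3 and 28.4 at + Fe and 3.22, 50.1 and 14.2 at - Fe overlapped.

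In the opposite direction, probe set 253161_at had the highest root mean of the members, 1.73. Its wild type root signals were 682, 19.3 and 25.3 at + Fe and 2361, 29.2 and 90.4 at - Fe. Its nas4x-1 root signals were 113, 24.4 and 18.1 at + Fe and 675, 95.2 and 256 at - Fe. Week 1 was much brighter than the other weeks in wild type, both genotypes overlapped between supplies, and the differences of 1.16 and 2.29 had an SE of 1.43 (limma, adjusted p = 1 for both).

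AT5G18130 signals in wild type roots were 201, 141 and 109 at + Fe and 335, 153 and 170 at - Fe. AT5G18130 signals in nas4x-1 roots were 171, 183 and 142 at + Fe and 199, 185 and 213 at - Fe. The higher level at - Fe in roots was small and, in wild type, overlapped.

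AT4G21580 signals in wild type roots were 185, 146 and 154 at + Fe and 226, 197 and 169 at - Fe. AT4G21580 signals in nas4x-1 roots were 155, 155 and 165 at + Fe and 197, 197 and 226 at - Fe. Wild type overlapped between supplies and nas4x-1 did not. Probe set 262892_at was higher at - Fe without overlap in both genotypes, with a root mean of 0.23.

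**Figure D5:**
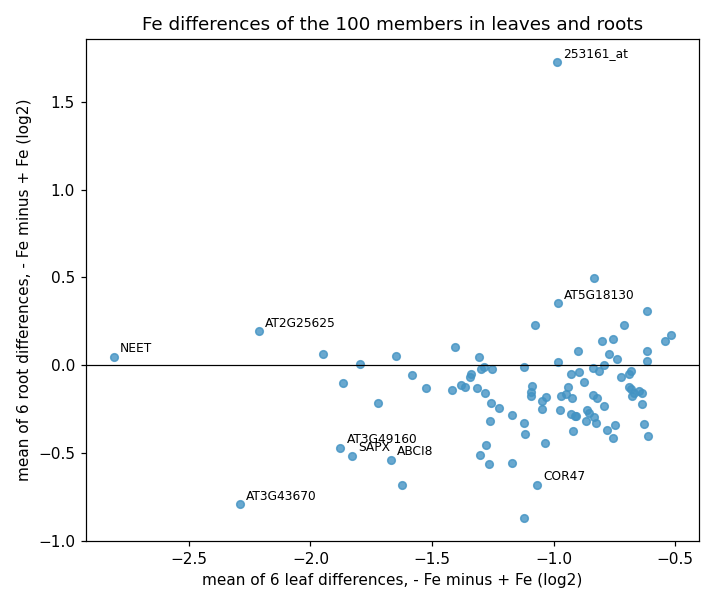
Mean of the 6 week-matched - Fe minus + Fe differences (log2 of signal + 16) in leaves (horizontal axis) and in roots (vertical axis) for the 100 members, 1 point per probe set. All points are below 0 in leaves by the rule. In roots most points lie between -0.5 and 0.3, and 253161_at stands apart at 1.73. Points below -0.5 in roots include AT3G43670, COR47, 248337_at, AT4G30650, ABCI8 and SAPX.

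AT2G25625 was dim in roots as well, with signals of 0.467 to 18.5. AT3G43670, with root signals of 38.1 to 118, had limma differences of -0.79 in wild type roots and -0.80 in nas4x-1 roots (SE 0.269 for each, adjusted p = 1 for both). The leaf level of the members at + Fe enters the rule, so its comparison with roots is a description only. At wild type + Fe, all leaf arrays lay above all root arrays for 74 members, where 24.1% of all probe sets had that pattern, and below them for 4, where 28.1% did. Of the 83 members with a mean signal of at least 100 in wild type + Fe leaves, 62 were above. Among all probe sets as bright as that, 40.6% were. The median leaf minus root difference of the members at wild type + Fe was 1.56 on the log2 scale, against -0.01 over all probe sets.

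Between genotypes in roots the median log2 difference of the members was near that of all probe sets (-0.04 against 0). Of the members 61 were below 0, where 49.1% of all probe sets were. No member passed by limma, where 0.136% of all probe sets passed. At an unadjusted p under 0.05, limma gave 8 members, 4 of them below 0, where 2.6% of all probe sets reached that level, and the ANOVA error model gave 4 members where 0.769% of all probe sets reached it (0 after adjustment). With the harvest week as a block, limma gave 12 members at an unadjusted p under 0.05, where 4.49% of all probe sets reached it. The smallest p of a member was that of SAPX, lower in nas4x-1 roots by a log2 difference of -0.46 (SE 0.112, limma adjusted p = 0.588), and the range of the members was -0.56 for AT3G49160 to 0.82 for 261448_at.

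Other genes of the members' pathways were read from gene lists, as far as the annotation used here placed them on a probe set. These lists were chosen with earlier results of these data known. In leaves, limma over all probe sets gave 40 calls between - Fe and + Fe in wild type (0.176%) and 17 in nas4x-1 (0.0747%). Of 14 genes of plastid Fe-S cluster assembly 5 could be read. NEET and ABCI8 of these were members, and none of the other 3 passed. CPNIFS, the plastid cysteine desulfurase, differed by 0.14 and 0.11, and HCF101, an Fe-S carrier for photosystem I, by -0.02 and 0.12 in wild type and nas4x-1.

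Of 17 plastid Fe-S enzymes 3 could be read, with SIR a member. THIC of thiamine synthesis (-0.21 in wild type, -0.84 in nas4x-1) did not pass. Of 11 catalases and ascorbate peroxidases 2 could be read. TAPX, the thylakoid counterpart of SAPX, differed by -0.23 and -0.02, against -1.5 and -2.16 for SAPX. Of 8 Fe proteins of photosynthetic electron transport 2 could be read, neither a member, and the cytochrome CYTC6A differed by -0.11 and 0.88 without passing (limma adjusted p = 0.338 in nas4x-1).

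Of 23 genes of tetrapyrrole synthesis 6 could be read. None was a member and none passed, with PORB, a protochlorophyllide oxidoreductase, at -0.41 in wild type and -0.99 in nas4x-1. Of 18 clock genes GI alone could be read, with mean leaf differences of -0.59 in wild type and -1.18 in nas4x-1. All 6 leaf differences of GI lay below -0.3, the highest at -0.315. GI thus met the rule, and it is no member only because probe sets with a lower maximum filled the set. In the tests GI passed only in nas4x-1 with the harvest week as a block (limma adjusted p = 0.0337, and 0.636 without the block).

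Of 9 genes of Fe storage and sufficiency 7 could be read, of which YSL1 was a member and 6 had been set aside by the rule for their known response. By limma, FSD1 (plastid Fe superoxide dismutase, -5.88), the ferritin FER1 (-3.10) and, narrowly, NAS3 (-2.15, adjusted p = 0.0498) fell in wild type leaves, and FSD1 (-6.49), FER1 (-4.03), FER3 (-3.04), FER4 (-2.80) and AT1G76800 (a vacuolar iron transporter-like gene, -1.79) fell in nas4x-1 leaves. With the harvest week as a block, where 1.21% (wild type) and 0.558% (nas4x-1) of all probe sets passed, FER3, FER4 and AT1G76800 also passed in wild type (limma adjusted p = 0.0441, 0.0441 and 0.0213). FSD1 passed under all 21 alternatives in both genotypes. The other calls did not: FER1 passed in 9 of 20 and NAS3 in 6 of 21 in wild type, and FER1 in 15 of 20, FER4 in 14 of 21, AT1G76800 in 12 of 21 and FER3 in 5 of 21 in nas4x-1. FER1 was left out in 1 alternative, since in wild type leaves its signals were close to the mirror image of those of another probe set. FSD1 and FER1 had larger differences than NEET, the member with the lowest mean, in both genotypes. None of the 7 genes passed in roots.

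Of 13 flavonoid and anthocyanin genes and of 12 aliphatic glucosinolate genes 2 each could be read, and none was a member or passed. No gene of nitrate assimilation (6 listed) or of lipoxygenases and jasmonate (12 listed) could be read.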

How the data were processed

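The authors computed signal intensity per probe set with the MAS 5 algorithm in GCOS, scaled to a common target. They then applied quantile normalization. The 24 columns of deposited linear intensity values have nearly the same distribution (medians 38.03 to 38.14). Columns made comparable across both organs can shift levels between organs. Detection calls were not used here, so a dim signal has no stated background.

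Values were taken as log2(signal + 16). Tests used limma 3.58.1 in R 4.3.3 (lmFit, eBayes with an intensity trend) on the 12 arrays of an organ, two-sided, with Benjamini-Hochberg adjustment over 22746 probe sets (64 controls left out) at 0.05. The fit was also run on simulated data with independent noise and no week effect. That run does not cover differences shared by arrays of the same week. The number of arrays limits the precision: an exact permutation test of 3 against 3 cannot go below 0.1. Per the study's design the 3 numbered repeats came from 3 consecutive weeks. The labels number the repeats without naming a week, so the replicate number is read here as the week. Deviations from group means correlated at 0.17 to 0.505 in 18 same-week leaf pairs (other weeks -0.447 to 0.122) and at 0.213 to 0.639 in root pairs (other weeks -0.51 to 0.211). The week as a block was therefore an alternative, with other offsets, normalization, filters, an ANOVA error model and arrays left out.

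Genes came from the platform annotation (58 members) or from the study's probe set lists (8). Members and gene lists were chosen with earlier results of these data known. Array values are given for up to 20 named members of lowest maximum, for list members and for the root extremes. The cold genes, NYC1 as a plastid gene, ALN, AT5G18130 and AT4G01390 were picked after their values were seen. No promoter or protein sequence was used.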

Additional observations from a re-analysis of the deposited data

Results flagged for a closer look

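In roots, 2 members had Fe differences of opposite sign in the 2 genotypes in every week. COR15B was above 0 in wild type (mean 0.06) and below 0 in nas4x-1 (mean -0.16), a difference of -0.22 on the log2 scale, and AT1G07050 was below 0 in wild type (mean -0.09) and above 0 in nas4x-1 (mean 0.01), a difference of 0.11. COR15B had root signals of 3.07 to 10.4 and AT1G07050 of 0.129 to 4.76, all below the offset of 16, so these signs rest on dim probe sets not shown to be above background. The test of this difference (limma interaction) gave an adjusted p of 1 for both, and no member reached even an unadjusted p under 0.05 (0 of 100).

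For 4 members all 6 root differences were above 0, opposite to leaves, where the rule fixes the sign. The root means were 1.73 for 253161_at, 0.35 for AT5G18130, 0.31 for AT4G21580 and 0.23 for 262892_at, beside leaf means of -0.99, -0.98, -0.61 and -0.71. The difference between organs was not tested.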

How the results depend on the processing

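The counts of members called stayed at 0 in both root Fe comparisons and in the root genotype comparison under every alternative run. In the leaf genotype comparison the replicate block (harvest week) gave 1 member and the other alternatives 0. The median of the members there was -0.52 to -0.33 with 1 array left out (-0.33 without the wild type - Fe array of week 2), and -0.46 in the main setting. The wild type root median was -0.30 with an offset of 1, and the nas4x-1 root median was -0.16 to -0.07 with 1 array left out. Within the root comparisons and the leaf genotype comparison, the replicate block changed no other call of a member.

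The rule found 146 probe sets. The limit of 0 gave 1280 and that of -0.5 gave 48. Leaving out 1 week gave 240 to 318, and 54, 70 and 69 members stayed among the first 100 without weeks 1, 2 and 3. With 1 genotype alone, chosen after seeing the data, the counts were 577 (wild type) and 491 (nas4x-1). An offset of 1 kept 76 members among the first 100.

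Over all probe sets in leaves, the 40 calls of wild type became 25 with an offset of 32, 276 with the replicate block, 18 with only the groups compared, 12 by the ANOVA error model, 7 without 16 probe sets whose levels formed 10 pairs of near mirror images between groups (FER1 among them, no member), and 16 (without + Fe week 3) to 161 (without - Fe week 1) with 1 array left out. The 17 calls of nas4x-1 became 27 with the dimmest probe sets left out, 127 with the block, 6 with only the groups compared, 1 by the ANOVA model, and 1 to 21 with 1 array left out. The cause was not tested. Dim signals limit the log2 differences.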
